A study of Homo sapiens with 4 samples.

Results

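HNRNPC peaks in non-coding exons were the positions of the HNRNPC cross-linking and immunoprecipitation (CLIP) list whose centre lay, on the same strand, in an exon of a transcript without a coding sequence, and in no 3′ UTR, coding sequence or 5′ UTR of any GENCODE 44 transcript. There were 494 of them among 9107 distinct positions, or 5.42% (95% Wilson interval 4.98 to 5.91%). The cells were MDA-MB-231, an established human breast cancer line without a genetic change or drug treatment in the labels. Ultraviolet light (254 nm, 400 mJ per square centimetre) cross-linked RNA to protein. There were 2 HNRNPC samples (irCLIP) and 2 PABPC4 samples (PAPERCLIP, a form of CLIP primed at poly(A) tails), and the samples of each protein had been pooled into 1 peak list. Each peak is described by its height, which counts the pooled unique tags stacked at the summit and has no spread between samples. Heights were scaled neither to library depth nor to the abundance of the RNA, so that more RNA and more binding per RNA cannot be told apart. Intervals and tests below cover counting error over peaks only.

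HNRNPC is an abundant nuclear protein that binds runs of uridine in nascent transcripts. It is known for covering the U-rich tracts of antisense Alu repeats, primate-specific elements derived from 7SL RNA, and for keeping these tracts from being used as splice sites. Non-coding exons are a mixed group. Long non-coding RNA (lncRNA) genes such as MALAT1 and NEAT1 give nuclear RNAs that are themselves structural parts of nuclear bodies. Small RNA genes give the RNAs that process, modify or carry other RNAs, and many small nucleolar RNAs (snoRNAs) are cut out of the introns of a host gene. Retained-intron transcripts are annotated copies of a protein-coding gene in which an intron was read as an exon, so a peak there may equally have come from the unspliced pre-mRNA.

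The sequences below show 3 kinds of peak boundary found among the members. The first set shows U runs near the 5′ end of the peak in lncRNAs and in the small RNA TERC, because these runs are the known ligand of HNRNPC. Each line gives 30 nt of RNA around the run, read from hg38, 5′ to 3′, with every run of 5 or more U in capitals.
MALAT1, 629 tags, chr11:65505055-65505411, plus strand: caggugaacaagcUUUUUcuguauuuacau
MALAT1, 197 tags, chr11:65505415-65505796, plus strand: aacauuuaagcaagcugUUUUUauagcagc
MALAT1, 108 tags, chr11:65501515-65501925, plus strand: uuaaacuuguuaUUUUUUacuugaagcauu
NEAT1, 33 tags, chr11:65442133-65442572, plus strand: ccacagaguuuugaUUUUUUUUUUUUUUUU
SNHG3, 54 tags, chr1:28508926-28509143, plus strand: gguaaacugaUUUUUUUUUUUaacagggag
SNHG3, 28 tags, chr1:28507613-28507787, plus strand: uugaagucUUUUUUUUUUUUUUUUUUUUUg
TERC, 83 tags, chr3:169764695-169764914, minus strand: ugUUUUUcucgcugacuuucagcgggcgga

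The second set shows the hexamer GUGUCA, often followed by G, at the 3′ end of the peak. Each line holds the last 20 nt of the peak and the 10 nt beyond it, with GUGUCA and a following G in capitals. It is shown because it was found in about as many members (148) as the U run was (145).
MYH9, 72 tags, chr22:36318096-36318237, minus strand: guccGUGUCAGgcacuuucacaugauucca
DNM2, 57 tags, chr19:10811658-10811777, plus strand: aacccugauGUGUCAGucaaaaggaugacc
MACF1, 53 tags, chr1:39466062-39466157, plus strand: acagcuaGUGUCAGccacugcaagaaccca
ARRDC1, 38 tags, chr9:137611826-137611950, plus strand: cucccucagcagGUGUCAGagucugaguca
PARD6G-AS1, 56 tags, chr18:80148992-80149134, plus strand: aggcgcaGUGUCAGucucguucuuuaagcg
GINS1, 50 tags, chr20:25424005-25424119, plus strand: ucauacauugaGUGUCAGuauuccugugga

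The third set shows members with both features, a U run or an antisense Alu together with the hexamer. NPM1, MTCL1 and UBAP2 are given by the same 3′ windows.
NPM1, 41 tags, chr5:171392112-171392231, plus strand: auuacacGUGUCAGccacugugccuggccu
MTCL1, 54 tags, chr18:8830599-8830701, plus strand: cuuccagugucugaGUGUCAuuccagccag
UBAP2, 30 tags, chr9:33995086-33995187, minus strand: ggauuacaaGUGUCAGccaccacaccugac

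Most members lay in non-coding transcripts of protein-coding genes rather than in genes for non-coding RNA. Retained-intron transcripts held 240 of the 494 peaks (48.6%), and other non-coding transcripts of protein-coding genes held 78 (15.8%). Exons of lncRNA genes held 132 peaks (26.7%), exons of small RNA genes 30 (6.07%), and exons of other gene types, mostly loci that the annotation types as TEC (transcribed but not yet tested by experiment) and pseudogenes, 14 (2.83%). Retained introns were split off for protein-coding genes only, so the lncRNA class also holds retained-intron transcripts of lncRNA genes. The centre also lay within an intron of a coding transcript for 370 of the 494 members. That was so for all 240 retained-intron peaks and 77 of the 78 in other non-coding transcripts, but for 28 of the 132 lncRNA peaks. With only the transcripts that GENCODE marks as basic, 152 members were left, and 69.1% of them were in lncRNA genes. The 494 peaks belonged to 385 genes, of which 332 had 1 peak, 43 had 2 or 3 and 10 had 4 or more. The authors' p-value was at most 0.001 for 350 members and above 0.05 for 37. Among these 37 were the MALAT1 peak of 45 tags, the NEAT1 peak of 28, the RN7SL2 peak of 18 and both SNHG17 peaks of 17. More than 1 gene ID was listed for 28 members.

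Members were slightly taller than intron peaks of the same list, and lncRNA and small RNA genes held the tallest ones. The median height was 12 tags over the 494 members (quartiles 9 and 19) and 11 tags over the 7782 intron peaks (quartiles 8 and 17). It was 14 tags in lncRNA genes, 18.5 in small RNA genes, 11 in retained introns, 12.5 in other non-coding transcripts and 11 in other gene types. More than 11 tags, the median of the list, were counted in 272 members (55.1%) against 47.8% of intron peaks, a difference of 7.25 percentage points (Newcombe interval 2.70 to 11.7; two-sided Fisher's exact test, adjusted p = 0.00232). With 1 peak per gene, the tallest, the shares were 51.4% and 49.8% and the test was no longer passed. This setting brought 7782 intron peaks down to 3332 and 494 members down to 385. The tallest was thus picked from more peaks per gene in introns. Among the classes the share was 62.9% in lncRNA genes (adjusted p = 0.00313) and 76.7% in small RNA genes (adjusted p = 0.00538), both by Fisher's exact test. With 1 peak per gene the lncRNA share was 51.3% (Fisher's exact test, adjusted p = 0.860) and that of small RNA genes 75.9% (Fisher's exact test, adjusted p = 0.0236). In retained introns 48.3% of peaks were above 11 tags, 0.52 points from introns (interval -5.83 to 6.91).

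**Figure D1:**
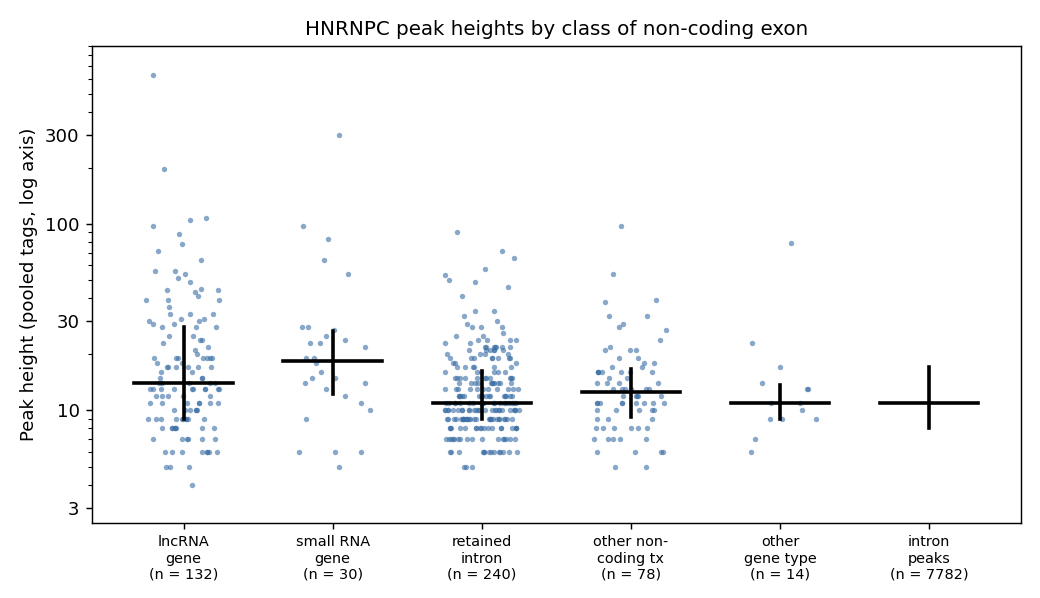
Height of each HNRNPC peak in a non-coding exon (pooled tags, log axis; each point is 1 peak) by class, with horizontal bars for the median and vertical bars for the quartiles; the intron peaks are drawn as median and quartiles only. The lncRNA and small RNA classes have medians of 14 and 18.5 tags, against 11 in retained introns and in introns, and hold all points above 98 tags.

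MALAT1 and NEAT1, neighbouring genes on chromosome 11, held 21 of the 132 lncRNA peaks and all 5 of the tallest. MALAT1 RNA is a component of nuclear speckles, where splicing factors gather. Its 8 peaks were, from the 5′ to the 3′ end, 45, 78, 108, 56, 105, 64, 629 and 197 tags high. The peak of 629 tags was the tallest of the whole list, and 3 nt separated it from the next peak, of 197 tags. Both lay between 7415 and 8156 nt from the annotated start of the 10434 nt gene. NEAT1 RNA is the scaffold of paraspeckles. Its 13 peaks had heights of 36, 39, 30, 39, 49, 88, 72, 28, 97, 33, 44, 43 and 29 tags in the same order. The peaks of both genes did not separate by height, as the lowest of MALAT1 (45 tags) was above the median of NEAT1 (39 tags) and below its highest (97 tags). A run of 5 U near the 5′ end was present in 4 of the 8 MALAT1 peaks and 3 of the 13 NEAT1 peaks, and 0 of the 21 matched an antisense Alu or ended in GUGUCA. Per kilobase of exon there were 0.767 peaks in MALAT1 and 0.571 in NEAT1. Without these genes the median lncRNA peak was 13 tags high and the tallest 56.

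**Figure D2:**
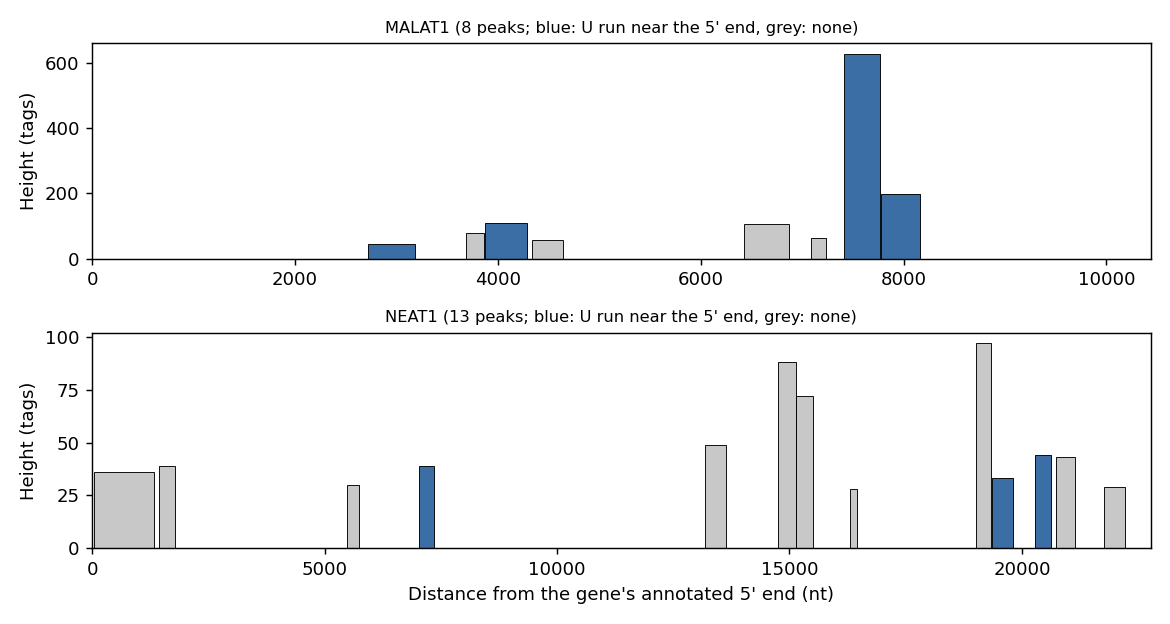
Peaks along MALAT1 (top) and NEAT1 (bottom): the horizontal axis is the distance in nt from the annotated 5′ end of the gene, each bar spans 1 peak, and its height is the number of pooled tags (the vertical scales differ). Blue bars have 5 U in a row near their 5′ end; the MALAT1 peaks of 629 and 197 tags lie side by side, while no NEAT1 peak exceeds 97 tags.

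Among the other lncRNAs with several peaks, SNHG3 and LINC-PINT had antisense Alu matches, while SNHG17 and MIR100HG, like MALAT1 and NEAT1, had none. SNHG3, a host gene of snoRNAs, had 7 peaks of 19 to 54 tags. All 7 matched an antisense Alu and 5 had a U run, among them the runs of 11 and 21 U printed above. The exons that held these 7 peaks belong to a SNHG3 transcript annotated as a retained intron. All were listed under the gene ID of RCC1, a neighbouring gene with an intron over the same place, so that their tags may belong to either transcript. LINC-PINT had 7 exonic peaks of 12 to 22 tags, 4 of them with an antisense Alu, among 33 peaks listed for the gene. SNHG17 had 6 peaks of 17 to 29 tags, with 0 antisense Alu matches and 1 U run. MIR100HG, a host gene of microRNAs, had 5 peaks of 9 to 15 tags, again without an Alu match, of 31 listed for the gene. Among protein-coding genes, SPG7, which encodes a mitochondrial protease, had 8 peaks of 12 to 32 tags in 2 classes of transcript. CDK5RAP2, GOLGA3 and EIF3E had 4 each, between 8 and 21 tags high.

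Lists of related genes were read against all genes of their type, as a description without a test. A peak in an exon was found for 82 of 18842 lncRNA genes, or 0.435%. Among 19 well-known lncRNAs there were 6 with one, namely MALAT1, NEAT1, LINC-PINT, PVT1, CYTOR and FTX, the last with 1 peak of 11 tags. KCNQ1OT1, TUG1 and NORAD, also on the list, had none. This list and the next were picked by name, so their shares and that of all lncRNA genes do not compare like with like. Of 33 snoRNA host lncRNAs, 9 had a peak. The tallest were in SNHG3, in SNHG26 (39 tags), in GAS5 (31, 17 and 17 tags), in SNHG17, in SNHG12 (19 tags) and in SNHG29 (19 and 13 tags). Among 38 splicing factor genes, listed as known for alternative non-coding transcripts, 8 had a peak in a non-coding transcript. Over all protein-coding genes, with or without such a transcript, it was 273 of 20020, or 1.36%. As the list was chosen for having such transcripts, these shares do not compare like with like. SRSF3 and HNRNPA2B1, whose products bind exons and introns of pre-mRNA, had 22 tags each, RBM39 had 17, HNRNPL 14, and SRSF10 and HNRNPM 11 each. HNRNPC itself had no such peak. The expression of these genes was not measured here.

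Small RNA genes held 30 peaks in 29 genes. Counted by distinct gene name, with every overlapping gene included, 31 of 5912 small RNA names (0.524%) had a peak in an exon. TERC and RN7SK were each counted there under a further name of the same RNA, and copies that share a name were counted once. Mitochondrial ribosomal RNA gave the tallest peaks of this class, with 299 and 98 tags in MT-RNR2 and 64 in MT-RNR1. These RNAs are made in mitochondria, outside the compartment where HNRNPC is mostly found, and they are among the most abundant RNAs of a cell. RNA abundance was not measured here, and whether abundance or place in the cell bears on these peaks was not tested. TERC, the template RNA of telomerase, had a peak of 83 tags, and its nearest U run began 48 nt before the peak. RMRP, the RNA of a mitochondrial and nucleolar RNase, had 54 tags. Of 30 abundant small RNAs on a list, 6 had a peak, namely TERC, RMRP, RN7SL1 (28 tags), RN7SK (23 tags), RN7SL2 (18 tags) and RNU11 (11 tags). As the list was picked for abundant RNAs, its share and that of all small RNA names do not compare like with like. RN7SL1 and RN7SL2 are near-identical, so the split of tags between them is uncertain, and both matched the Alu consensus in the sense direction, as 7SL is the source of Alu. The peaks in RNA5S9, U2, RNU6-16P and Y_RNA had 5 or 6 tags and lay in families with many near-identical copies, so their place is uncertain too.

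There were 15 snoRNA peaks in as many genes, 13 of box C/D name and 2 of box H/ACA name, with heights of 9 to 28 tags (median 16). Box C/D snoRNAs guide methylation and box H/ACA snoRNAs guide pseudouridylation of other RNAs. The authors' list gave 14 of the 15 under the gene ID of another gene, and 6 of these were ribosomal protein genes, which host many snoRNAs. In 12 of the 15 the centre lay in an intron of a coding transcript, and 7 of the peaks were wider than the snoRNA. Whether their tags came from the mature snoRNA or from the intron around it cannot be told apart. SNORD96A and SNORD34 were the tallest, with 28 and 27 tags, SNORA73A followed with 25 and SNORD110 with 24. A U run was found for 2 of the 15 peaks, those of SNORD2 (16 tags) and SNORD46 (14 tags). These runs began 49 and 28 nt before the peak, and both lay upstream of the annotated snoRNA.

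The retained-intron peaks had the median height of intron peaks, 11 tags, and none of the features compared passed the test against introns when every peak was counted, while U runs, antisense Alu and GUGUCA ends were fewer than in introns with 1 peak per gene. The tallest were in DAZAP1 (91 tags), an RNA-binding protein gene, in MYH9 (72 tags), which encodes a non-muscle myosin, in OAZ1 (66 tags), an inhibitor of polyamine synthesis, in DNM2 (57 tags), which encodes dynamin, and in MACF1 (53 tags), a cytoskeletal linker. The OAZ1 peak carried an antisense Alu, those of MYH9, DNM2 and MACF1 ended in GUGUCA, and that of DAZAP1 had neither. The coding introns around these 240 peaks were short, with a median of 2308.5 nt against 21279 nt around intron peaks, and the median distance to the 3′ splice site was 794 nt against 10434 nt. The rule places these peaks in annotated retained introns, and the lengths of such introns without a peak were not measured, so the values are a description only. In other non-coding transcripts the tallest were CAPN15 (98 tags), MTCL1 (54 tags), GEN1 (39 tags), ARRDC1 (38 tags) and INPP5A (32 tags). In other gene types, ENSG00000279801, which lies in an intron of SEPTIN9, had 79 tags, ENSG00000278864 had 23, 14 and 13, and the pseudogene RPL29P14 had 17.

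U runs, antisense Alu repeats and the GUGUCA end were all less frequent in members than in intron peaks. A run of 5 U between 50 nt before the 5′ end of the peak and 10 nt inside it was found in 145 of the 494 members (29.4%) and in 35.3% of intron peaks. The difference was -5.95 points (interval -9.94 to -1.65; Fisher's exact test, adjusted p = 0.0074). Peaks with no Alu match went the other way, with 14.8% in members and a difference of 0.93 points (interval -2.59 to 5.18). An antisense Alu was matched in 143 members (28.9%) against 39.3% (difference -10.3 points, interval -14.3 to -6.04; Fisher's exact test, adjusted p = 6.72e-06). GUGUCA at the 3′ end was found in 148 members (29.96%) against 40.3% (difference -10.3 points, interval -14.4 to -6.01; Fisher's exact test, adjusted p = 6.72e-06). With the whole peak searched but not the nt beyond it, the shares were 27.5% in members and 29.2% in introns. That difference was -1.63 points (interval -5.52 to 2.59) and did not pass. Against the 519 3′ UTR peaks in place of introns, the U run and GUGUCA differences were -1.09 and -2.03 points and did not pass, and the antisense Alu share was 3.13 points higher in members (interval -2.36 to 8.61).

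**Figure D3:**
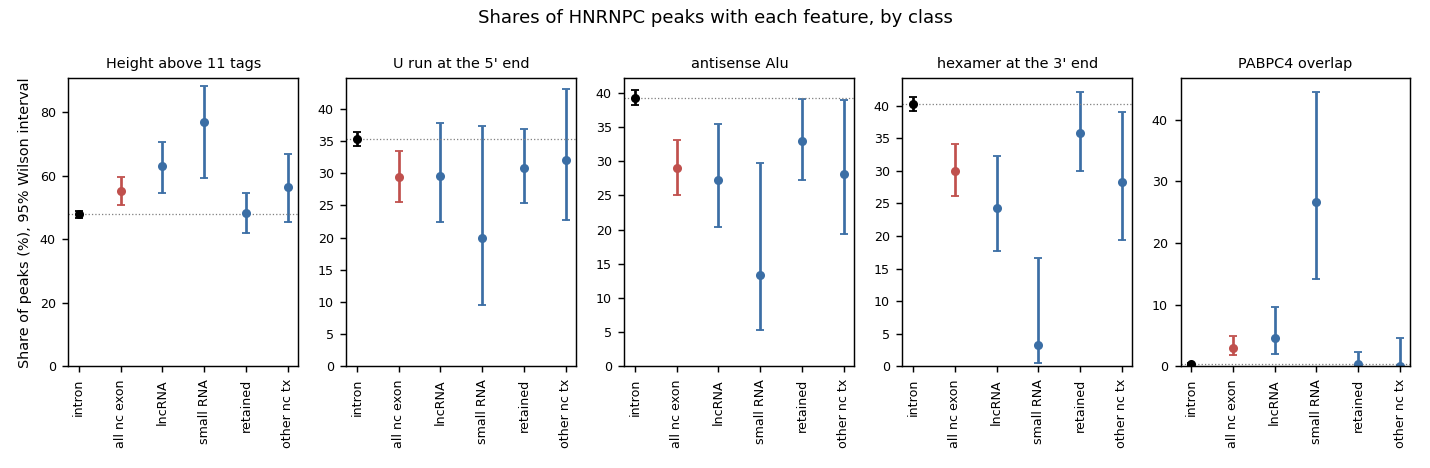
Share of peaks (%, vertical axis from 0) with each of 5 features in intron peaks (black), all members (red) and 4 classes of members (blue), with 95% Wilson intervals; the dotted line is the intron share. Small RNA genes have the lowest GUGUCA share (3.33%) and the highest PABPC4 overlap (26.7%), and the intervals of retained introns are near the dotted line.

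Each class was then compared with intron peaks. In lncRNA genes, antisense Alu was matched in 27.3% (adjusted p = 0.0129) and GUGUCA in 24.2% (adjusted p = 0.000756, by Fisher's exact test), of which the second was lost with 1 peak per gene (adjusted p = 0.105). In small RNA genes, antisense Alu was matched in 4 of 30 (13.3%, exact test, adjusted p = 0.0116) and GUGUCA in 1 of 30 (3.33%, exact test, adjusted p = 5.69e-05). That peak was in SNORD17. The U run shares, 29.5% and 20% in the same order, did not pass. In retained introns, the U run was found in 30.8%, the antisense Alu in 32.9% and GUGUCA in 35.8%, none past the threshold, and with 1 peak per gene all 3 were lower than in introns by Fisher's exact test (adjusted p = 0.0327, 0.0358 and 0.0170). Other non-coding transcripts had 28.2% for both antisense Alu (adjusted p = 0.0933) and GUGUCA (adjusted p = 0.0801) by Fisher's exact test, and both passed with 1 peak per gene (adjusted p = 0.0236 and 0.0170). With 1 peak per gene, the tallest, GUGUCA was found in 50.8% of intron peaks rather than 40.3%, so the comparator changed as well. Whether the classes differ from each other was not tested.

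The share of members with a U run was lower where the peak had a GUGUCA end. A U run was found in 21 of the 148 members with the GUGUCA end (14.2%, interval 9.47 to 20.7%) and in 124 of the 346 without it (35.8%, interval 31.0 to 41.0%). In intron peaks these shares were 23.2% and 43.4%. U runs were tied to Alu repeats, with 65.0% of the 143 members that matched an antisense Alu against 14.8% of the 351 that did not, and 68.3% against 13.97% in introns. The part of the members that had none of the 3 features was 37.0%, against 24.3% of intron peaks, and reached 42.4% in lncRNA genes and 19 of 30 in small RNA genes. A U run without an Alu or a GUGUCA end, as in MALAT1, was present in 8.50% of members and 4.48% of intron peaks. Whether the GUGUCA end comes from the RNA, the library linker or the read trimming was not tested.

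**Figure D4:**
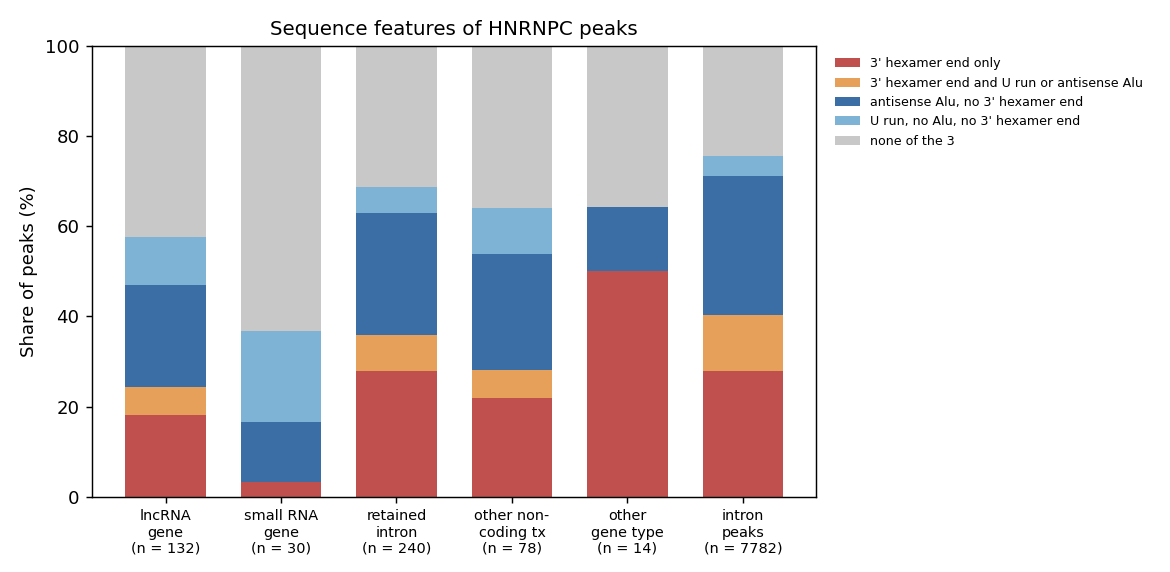
Stacked shares of peaks (%) by sequence pattern in the 5 classes of members and in intron peaks; each peak is counted once, and 3′ hexamer stands for GUGUCA at the 3′ end. The grey part, peaks with none of the 3 features, is 37.0% over all members and widest in small RNA genes (63.3%), against 24.3% in introns.

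Around the 5′ end, runs of 5 U stopped close to where the peak began. Starts between 10 nt before and 8 nt after the 5′ end were seen in 2.42% of members per position, on average, and in 3.14% of intron peaks. From 60 to 20 nt before the 5′ end the averages were close to these, 2.37% and 2.87%. From 20 to 59 nt inside the peak the averages were 0.127% and 0.191%. In lncRNA genes the value around the 5′ end was 3.75% per position, against 1.68% in the upstream window. In retained introns it was 2.32%, against 2.49% upstream. Within the peak as a whole 14.4% of members had a U run, 0.94 points above introns (interval -1.98 to 4.39).

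**Figure D5:**
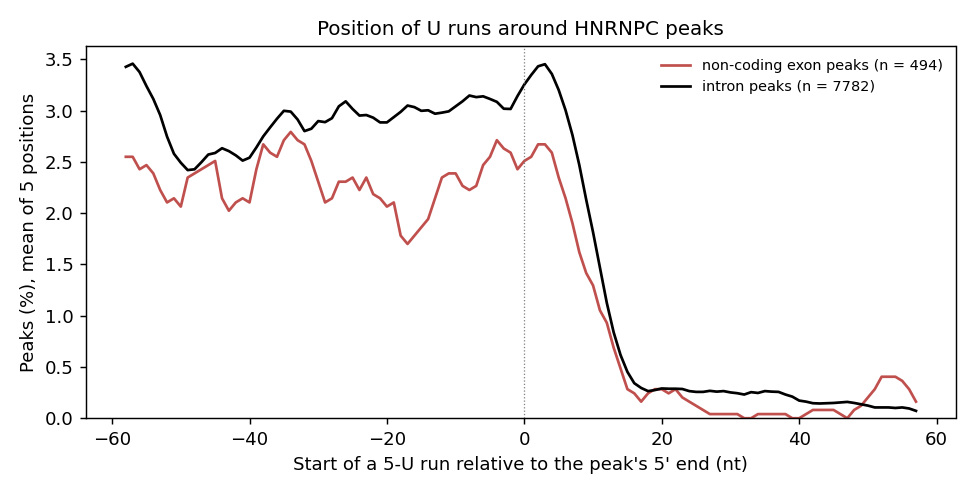
Percent of peaks (vertical axis, mean of 5 neighbouring positions) in which a run of 5 U starts at each distance in nt from the 5′ end of the peak (horizontal axis, negative values upstream). Members (red) lie below intron peaks (black) over most of the upstream side, and both fall close to 0 within about 20 nt after the 5′ end.

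Every 6-mer was also compared. Of all possible 6-mers, 44 (1.07%) were found in more members and 2 (0.0488%) in fewer than in intron peaks at an adjusted p under 0.05 by Fisher's exact test. The lower ones were AGGUGU (7.69% against 13.3%) and ACAGGU (4.66% against 9.03%). An antisense Alu was matched in 14 of the 38 members with AGGUGU and in 13 of the 23 with ACAGGU. In peaks with no Alu match neither was called. The only 6-mer that passed there was UGGCUG (18.9% against 10.5%, adjusted p = 0.0427, Fisher's exact test). The 5 of lowest p among the higher ones were GAGAAG (6.28% against 2.52%), ACGCUG (4.66% against 1.58%), UGAGGA (6.48% against 2.76%), UGAUGU (5.67% against 2.26%) and GAAGAG (5.87% against 2.40%). MALAT1 and NEAT1 held 7 of the 31, 3 of the 23, 6 of the 32, 3 of the 28 and 4 of the 29 members with these 5 6-mers, in the same order. Members were wider than intron peaks, with a median of 108 nt against 101 nt and an upper quartile of 149.75 nt against 124 nt. The part of width in these calls was not tested beyond the fixed length of 60 nt given below. With 1 peak per gene, AGGUGU (adjusted p = 0.00152), ACAGGU (adjusted p = 0.0351), UGAGGA (adjusted p = 0.0263) and GAAGAG (adjusted p = 0.0351) still passed by Fisher's exact test. In the same setting GAGAAG (adjusted p = 0.114), ACGCUG (adjusted p = 0.0667) and UGAUGU (adjusted p = 0.360) did not pass Fisher's exact test. Over whole peaks, 724 6-mers were higher and 24 lower at an unadjusted p under 0.05 by Fisher's exact test. When only the first 60 nt of each peak were searched, 0 6-mers were called, and 185 were higher and 59 lower at the same unadjusted limit. UGAGGA was then found in 4.46% against 1.47% (adjusted p = 0.0661, Fisher's exact test).

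PABPC4 peaks rarely overlapped members, but did so more often than they overlapped intron peaks. An overlap of at least 1 nt on the same strand was found for 15 of the 494 members (3.04%) and 34 of the 7782 intron peaks (0.437%), a difference of 2.60 points (interval 1.40 to 4.52; Fisher's exact test, adjusted p = 4.21e-07). Small RNA genes held 8 of the 15 (26.7% of 30, exact test, adjusted p = 3.70e-11), lncRNA genes 6 (4.55% of 132, exact test, adjusted p = 0.000309) and retained introns 1. Overlapping PABPC4 peaks were up to 24717 tags high in MT-RNR2, and 1323 tags in MT-RNR1. They were 294 tags high in MALAT1, 43 in NEAT1, 1401 in SNHG29, 35 in MIR100HG, 35 in RMRP, 105 in RN7SK and 17 in RN7SL1. PABPC4 binds poly(A), and tags of its method start at A-rich RNA. On the opposite strand, 0 of 494 members overlapped a PABPC4 peak, which allows a share of up to 0.607%. Against 3′ UTR peaks the direction turned, with a difference of -3.51 points (members minus 3′ UTR peaks, interval -6.25 to -0.87).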

How the data were processed

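HNRNPC (irCLIP by the labels and the methods, HITS-CLIP by the list's name) and PABPC4 (PAPERCLIP) were mapped in MDA-MB-231 cells, 2 samples each. For HNRNPC the authors collapsed reads by molecular identifiers, trimmed them, aligned them to hg38 with BWA, pooled the samples and used the CLIP Tool Kit to call peaks; the submitters' processing notes name UMI-tools, cutadapt and BWA 0.7.17. The deposited signal of each peak is its height, and the authors' p-value was used only as a limit. Library depth was not analysed here.

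Positions listed more than once were counted once. Centres were assigned to GENCODE 44 exons on their own strand, with 3′ UTR taken first, then coding sequence, 5′ UTR, non-coding exon and intron; small RNA genes came before lncRNA genes, and those before transcripts of protein-coding genes. Chromosome names matched, and 0 peaks ran past a chromosome end. An Alu consensus was built with MAFFT 7.526 and matched by BLAST 2.17.0 (E-value limit 1e-05, 100 nt added on each side). GUGUCA was searched so as to overlap the last 20 nt of a peak or the 10 nt beyond. Shares were compared by two-sided Fisher's exact tests (scipy 1.17.1) with Benjamini-Hochberg adjustment over 5 comparisons, over 20 for the classes and over all 6-mers. Differences carry 95% Newcombe intervals. The 6-mer test was also run on simulated data, intron peaks split at random with 6-mers planted in the smaller group. Such a split has no built-in difference in width, Alu content or peaks per gene. That run therefore does not cover these differences between members and intron peaks. Gene IDs had a symbol for 4090 of 4098. Peaks of a gene are not independent, hence the alternative with 1 peak per gene.

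Named were the 5 tallest peaks of each class, genes with 4 or more peaks, MALAT1 and NEAT1, up to 6 genes by height of each list, and the 5 6-mers of lowest p in each direction. The members, lists and tests were chosen with earlier results of these data known. Genes outside this rule, among them PARD6G-AS1, GINS1, NPM1, UBAP2, the snoRNA genes and some with a PABPC4 overlap, were named after their values were seen.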

Additional observations from a re-analysis of the deposited data

How the results depend on the processing

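No paired analysis was possible because there is only 1 pooled list per protein, and leaving out a sample could not be run for the same reason. Of 48 recalculations, 31 kept their direction and side of the threshold or moved little; the cause of the other changes was not tested except where named. The count of 494 members became 310 with only peaks at or above the median height and 152 with basic transcripts, where the share in lncRNA genes was 69.1%; both settings use fewer peaks or transcripts. The height difference was 1.64 points with 1 peak per gene and 2.73 points for heights above 2 times the median. The U run difference was -1.09 points against 3′ UTR peaks, -2.34 with 7 U in a row, 0.94 within the peak and 0.93 in peaks with no Alu match. The antisense Alu difference turned to 3.13 and the PABPC4 difference to -3.51 against 3′ UTR peaks. The GUGUCA difference was -2.03 against 3′ UTR peaks and -1.63 when the whole peak was searched but not the nt beyond it. The called 6-mers fell from 46 to 14 with 1 peak per gene, 6 with the authors' p at most 0.001, 1 in peaks with no Alu match and 0 in the first 60 nt. Counting UTR and coding sequence only from transcripts typed as protein coding gave 513 members. Without peaks with a GUGUCA end the differences grew, to 14.8 points for height and -16.8 points for antisense Alu. Leaving out these peaks or MALAT1 and NEAT1 changed no direction or call. These last settings, the 60 nt limit and 1 peak per gene by class were chosen after seeing the data. The small RNA class has 30 peaks, and its intervals are wide.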
